A study of Mus musculus with 9 samples.

Results

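The genes described here are those of signalling by leukaemia inhibitory factor (LIF) through gp130 to the STAT transcription factors. The 10 genes are Lif, Lifr, Il6st, Osmr, Il6ra, Jak1, Stat3, Stat6, Socs2 and Socs3, chosen by name from the 46517 genes measured, and all 10 passed the filter on low counts. LIF is a secreted cytokine that binds its receptor LIFR, which pairs with the shared receptor chain gp130, the product of Il6st. Oncostatin M and interleukin-6 use gp130 together with OSMR and IL6RA. The JAK kinases bound to these receptors phosphorylate STAT3, which enters the nucleus and induces genes that include Socs3, whose product binds gp130 and shuts the signal off. In the intestine, gp130 signalling to STAT3 is known for its part in epithelial regeneration after injury, while STAT6 carries the signals of interleukin-4 and interleukin-13.

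RNA was sequenced from wild-type C57BL/6J mouse duodenal organoids, 3-dimensional cultures grown from intestinal crypts, in 3 groups of 3 samples that differed in the adenovirus they received. Ad-GFP carried green fluorescent protein as the control, and Ad-hHIF1 and Ad-hHIF2 carried human HIF1 or HIF2, hypoxia-inducible transcription factors mutated at prolines so that VHL does not direct their degradation. All groups were dissociated to single cells, transduced at 50 particles per cell, kept at 5% oxygen in L-WRN conditioned medium (Wnt3a, R-spondin 3 and noggin) with the ROCK inhibitor Y27632, the TGF-beta receptor inhibitor SB431542 and nicotinamide, and harvested about 72 hours later. The animals' ages were not given in the sources used here. The model is thus transient overexpression of a human factor in cultured epithelium, and the measured LIF transcripts are the organoids' own.

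The comparisons asked which transcripts each HIF changes and whether the HIFs differ. Library totals ran from 21722618 to 51119041 expected counts. Epas1, the mouse HIF2 alpha gene to which reads of the human transgene can be assigned, had a mean of 672.1 CPM (TMM-normalized counts relative to the library total) in Ad-hHIF2, 1.77 in Ad-GFP and 2.10 in Ad-hHIF1 organoids. Among epithelial markers, Krt8 averaged 1067 CPM and Cdh1 218 CPM in Ad-GFP organoids, whereas Epcam averaged only 2.94 CPM and Vil1 4.36 CPM. In Ad-hHIF1 replicate 3, Gm10800 and Gm26870 took 15.96% of the counts, against 0.43% to 4.28% in the other 8 libraries. The comparisons of the 10 genes with Ad-hHIF1 are therefore also given without that library where a call changed. TMM normalization changed the scale most in Ad-hHIF2 replicate 1. There 2237 Lif counts in a total of 33412752 gave 51.1 CPM, whereas 2443 in 51119041 gave 47.9 CPM in Ad-hHIF2 replicate 3.

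In Ad-hHIF2 organoids, the ligand, all 4 receptor genes, the kinase and both STAT genes rose, and Socs2 and Socs3 fell, relative to Ad-GFP organoids, although Socs3 turned higher on the TPM scales. Lif rose 4.80-fold, Stat6 2.46-fold, Lifr 2.30-fold and Jak1 2.05-fold, while Il6ra, Il6st, Osmr and Stat3 rose less than 2-fold. A gene is called here where edgeR's quasi-likelihood test gave it an adjusted p (Benjamini-Hochberg, over all 14987 genes tested) below 0.05. By that rule 8 of the 10 genes were called higher, against 15.9% of all genes, and 2 were called lower, against 13.6% of all genes. With a change of at least 2-fold as a further condition, 4 of the 10 were called higher, against 2.90% of all genes. For the 8 higher genes the lowest Ad-hHIF2 sample exceeded the highest Ad-GFP sample, which held for 23.4% of all genes, and for Socs2 and Socs3 the order was the reverse, which held for 22.4%. The median log2 fold change of the 10 genes was 0.79, against -0.01 over all genes tested. Called genes were higher in 53.9% of cases. With total counts in place of TMM normalization, which moved the median of all genes to 0.24, they were higher in 80.8%, and the 8 increases were still called while neither SOCS gene was. In bulk RNA, fewer cells of a type and less RNA per cell cannot be told apart.

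**Figure D1:**
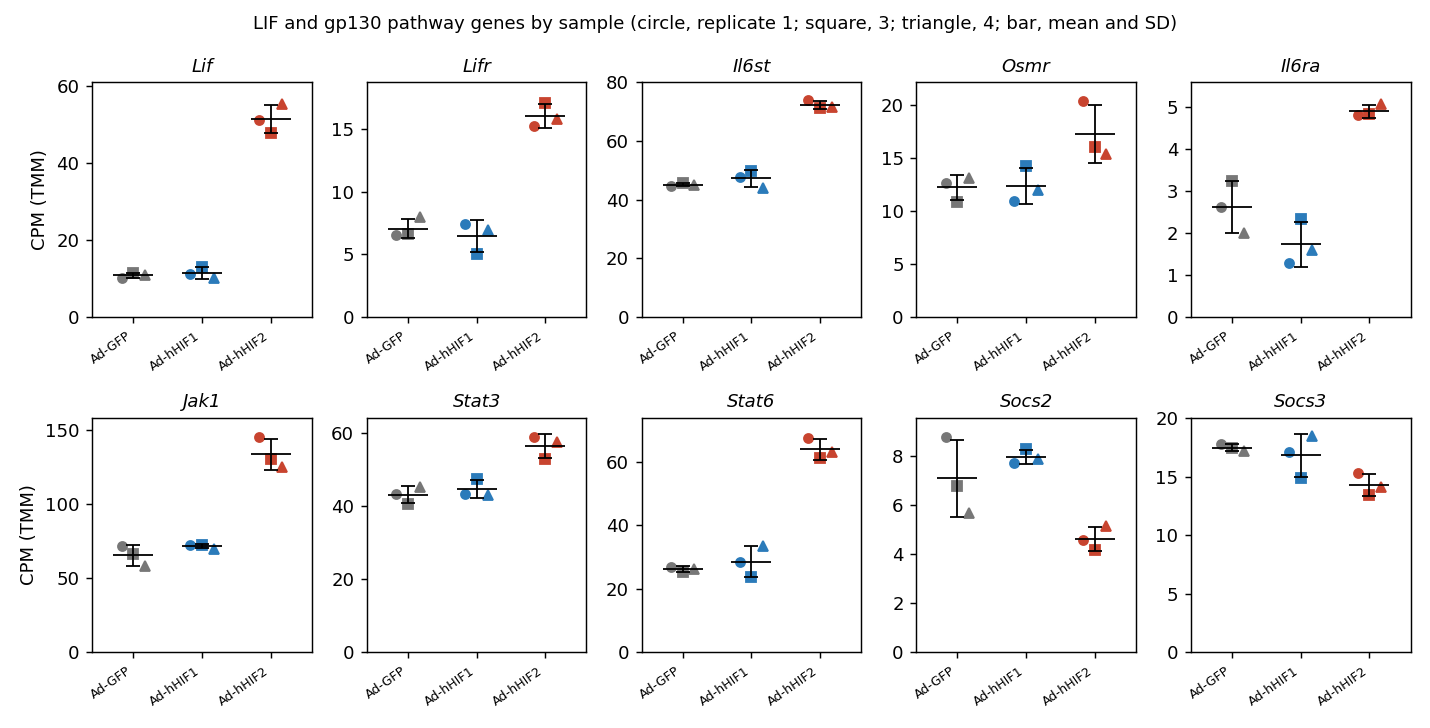
CPM with TMM normalization (vertical axes, each from 0) of the 10 genes in the 9 samples, by group on the horizontal axis. Each symbol is 1 sample, and bars show the mean and SD of 3. The Ad-hHIF2 samples lie above both other groups for 8 genes and below Ad-GFP for Socs2 and Socs3.

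Lif (ENSMUSG00000034394, chr11:4257557-4272514, plus strand) encodes the ligand. Its level in replicates 1, 3 and 4 was 10.1, 11.3 and 10.8 CPM in Ad-GFP organoids and 51.1, 47.9 and 55.3 CPM in Ad-hHIF2 organoids. In Ad-hHIF1 organoids it was 11.1, 13.0 and 10.1 CPM. Every Ad-hHIF2 sample was thus far above the other 6, and the Ad-GFP and Ad-hHIF1 samples overlapped. The group means were 10.7 ± 0.614, 51.5 ± 3.68 and 11.4 ± 1.47 CPM (SD, n = 3 each). Against Ad-GFP organoids, the log2 fold change in Ad-hHIF2 organoids was 2.26 (SE 0.0844, 95% confidence interval 2.07 to 2.46, adjusted p = 6.7e-07, edgeR). In absolute size this was rank 162 of all genes tested. Leaving out any 1 of the 6 samples kept it between 2.22 and 2.31. The 10 genes were chosen with earlier results of these data known, and the study itself picked out Stat6 on these samples, so none of the increases is independent of that choice.

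Among 12376 other genes with a mean of at least 1 CPM, those whose pattern was most like Lif over the 9 samples were Epas1 (Pearson r = 0.997), Slc4a4 (0.997), Nedd9 (0.996), Fam102b (0.995) and Cdh6 (0.995). Slc4a4 encodes a sodium bicarbonate cotransporter, Nedd9 an adhesion scaffold protein and Cdh6 a cadherin. Within the set of 10, Il6st followed Lif most closely, at r = 0.994, and Osmr least closely among the genes that rose, at 0.839. Socs2 and Socs3 ran opposite to Lif, at -0.856 and -0.841. These values are descriptive: the 9 samples fall into Ad-hHIF2 and the rest, so that any gene with a clear Ad-hHIF2 difference scores high.

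The 4 receptor genes were called higher in Ad-hHIF2 organoids, by 1.42-fold to 2.30-fold, with no overlap between the groups. Lifr (ENSMUSG00000054263, chr15:7090614-7197489, plus strand), the specific LIF receptor chain, was at 6.56, 6.65 and 7.95 CPM in Ad-GFP and 15.3, 17.1 and 15.8 CPM in Ad-hHIF2 organoids. Its log2 fold change was 1.20 (SE 0.112, adjusted p = 0.000135, edgeR), the largest of the 4. Il6st (ENSMUSG00000021756, chr13:112464070-112510086, plus strand), which encodes gp130, was at 44.8, 45.6 and 44.8 CPM in Ad-GFP and 74.0, 71.4 and 71.5 CPM in Ad-hHIF2 organoids. After TMM normalization this shared chain had tight replicates in both groups, with a log2 fold change of 0.69 (SE 0.0625, adjusted p = 0.000116, edgeR). It was 0.58 and 1.02 on the log2(TPM + 1) and log2(TPM + 0.1) scales, where it was not called (adjusted p = 0.107 and 0.0634, limma).

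Osmr (ENSMUSG00000022146, chr15:6813577-6874969, minus strand), the oncostatin M receptor chain, was at 12.6, 10.9 and 13.1 CPM in Ad-GFP and 20.4, 16.0 and 15.4 CPM in Ad-hHIF2 organoids. Replicate 1 of Ad-hHIF2 was the highest and the other 2 were nearer to the control samples. The log2 fold change of 0.51 (SE 0.128, adjusted p = 0.0179, edgeR) was no longer called without Ad-hHIF2 replicate 1 (0.40, adjusted p = 0.0512) or without Ad-GFP replicate 3 (0.42, adjusted p = 0.0721), or on the TPM scales (0.33 and 0.74, adjusted p = 0.223 and 0.197, limma). Il6ra (ENSMUSG00000027947, chr3:89864059-89913196, minus strand), the ligand-binding interleukin-6 receptor chain, was at 2.62, 3.24 and 2.0 CPM in Ad-GFP and 4.80, 4.83 and 5.08 CPM in Ad-hHIF2 organoids. These levels rest on 40 to 246 counts per sample. The log2 fold change of Il6ra was 0.89 (SE 0.200, 95% confidence interval 0.43 to 1.35, adjusted p = 0.011, edgeR).

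Jak1 (ENSMUSG00000028530, chr4:101152367-101265282, minus strand) encodes the kinase that gp130 relies on most. It was at 72.1, 66.1 and 58.0 CPM in Ad-GFP and 145.2, 130.4 and 125.6 CPM in Ad-hHIF2 organoids. The log2 fold change was 1.03 (SE 0.0973, adjusted p = 0.000137, edgeR), and its 95% confidence interval of 0.81 to 1.26 reached below 2-fold. Of the other 3 JAK genes, Tyk2 rose as well, from a mean of 13.3 ± 2.04 to 19.6 ± 1.72 CPM (SD, n = 3 each; log2 fold change 0.56, adjusted p = 0.0111, edgeR). It was not called on the TPM scales (0.36 and 0.85, adjusted p = 0.182 and 0.133, limma). Jak2 and Jak3 were not called, and of all genes 15.9% were called higher and 13.6% lower.

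The STAT genes differed in the size of their increase. Stat3 (ENSMUSG00000004040, chr11:100885098-100939540, minus strand), the main STAT downstream of gp130, was at 43.3, 40.5 and 45.1 CPM in Ad-GFP and 58.8, 52.7 and 57.3 CPM in Ad-hHIF2 organoids. The groups did not overlap, and the log2 fold change was 0.39 (SE 0.0753, 95% confidence interval 0.22 to 0.56, adjusted p = 0.00534, edgeR), the smallest of the 8 increases. On the log2(TPM + 1) and log2(TPM + 0.1) scales it was 0.40 and 0.51 and was not called (adjusted p = 0.37 and 0.368, limma). Stat6 (ENSMUSG00000002147, chr10:127642986-127660957, plus strand) was at 27.0, 25.2 and 26.1 CPM in Ad-GFP and 67.5, 61.1 and 63.2 CPM in Ad-hHIF2 organoids. Its log2 fold change was 1.30 (SE 0.0693, 95% confidence interval 1.14 to 1.45, adjusted p = 5.36e-06, edgeR). Of the other 5 STAT genes, 4 were tested and 0 were called in edgeR's test, against 15.9% of all genes called higher and 13.6% lower. An unadjusted p below 0.05 was found for 0 of the 4, and for 6175 of all 14987 genes tested. These RNA values do not measure STAT phosphorylation.

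Socs2 and Socs3 were called lower, while Cish, another SOCS gene, was called higher and is given with the other inhibitors. Socs2 (ENSMUSG00000020027, chr10:95385362-95417180, minus strand), best known as an inhibitor of growth hormone signalling, was at 8.80, 6.79 and 5.70 CPM in Ad-GFP and 4.57, 4.16 and 5.14 CPM in Ad-hHIF2 organoids. The groups lay side by side without overlap, and the log2 fold change was -0.63 (SE 0.18, adjusted p = 0.0302, edgeR). Socs3 (ENSMUSG00000053113, chr11:117966079-117970047, minus strand), the inhibitor of gp130 itself, was at 17.8, 17.5 and 17.1 CPM in Ad-GFP and 15.3, 13.4 and 14.1 CPM in Ad-hHIF2 organoids. Its log2 fold change of -0.29 (SE 0.0824, adjusted p = 0.0298, edgeR) was not called with DESeq2 (-0.29, adjusted p = 0.0524) or without a count filter (-0.26, adjusted p = 0.117). It became -0.02 with total counts and turned to 0.12 and 0.18 on the log2(TPM + 1) and log2(TPM + 0.1) scales, on which the median of all genes was 0.12 and 0.30. Socs2 was -0.37 with total counts (adjusted p = 0.227, edgeR) and -0.15 and -0.41 on the TPM scales (adjusted p = 0.559 and 0.476, limma). Both calls were lost, with the sign kept, without Ad-GFP replicate 1, Ad-GFP replicate 3, Ad-hHIF2 replicate 1, Ad-hHIF2 replicate 3 or Ad-hHIF2 replicate 4. In that order the log2 fold changes of Socs2 were -0.44, -0.67, -0.60, -0.55 and -0.70 (adjusted p = 0.107, 0.0608, 0.0917, 0.106 and 0.0516, edgeR). Those of Socs3 were -0.27, -0.29, -0.32, -0.24 and -0.27 (adjusted p = 0.082, 0.0791, 0.0556, 0.115 and 0.0891, edgeR).

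Ad-hHIF1 organoids gave no such pattern. Of the 10 genes, 0 were called against Ad-GFP by edgeR's quasi-likelihood test, 0 had an unadjusted p below 0.05 and 0 were called by DESeq2. Over all 15233 genes tested, 0% were called by edgeR, 1308 genes had an unadjusted p below 0.05, and DESeq2 called 144. None of the 10 had groups without overlap, which held for 17.4% of all genes. Their median log2 fold change was 0.06, against 0.00 over all genes tested.

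The intervals in Ad-hHIF1 organoids differed in width. For each of the 8 genes that rose in Ad-hHIF2 organoids, the upper end lay below the Ad-hHIF2 log2 fold change. For Socs3 the lower end reached its Ad-hHIF2 value of -0.29. The 95% confidence interval of the log2 fold change was -0.21 to 0.37 for Lif, -0.54 to 0.31 for Lifr, -0.10 to 0.23 for Il6st and -0.29 to 0.33 for Osmr. It was -0.08 to 0.34 for Jak1, -0.12 to 0.23 for Stat3 and -0.15 to 0.42 for Stat6. For the inhibitors it was -0.24 to 0.57 for Socs2 and -0.29 to 0.18 for Socs3. Il6ra was the least certain, at 1.28, 2.32 and 1.59 CPM in Ad-hHIF1 organoids, with a log2 fold change of -0.62 and an interval of -1.38 to 0.14 (adjusted p = 0.632, edgeR). The Ad-hHIF1 samples of Stat6 spread over 28.3, 23.8 and 33.5 CPM. Without Ad-hHIF1 replicate 3, the log2 fold change of Lif was -0.02 (adjusted p = 0.979), that of Lifr 0.04 (0.964), that of Osmr -0.09 (0.904) and that of Socs3 0.03 (0.958), so that their signs turned (edgeR).

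**Figure D2:**
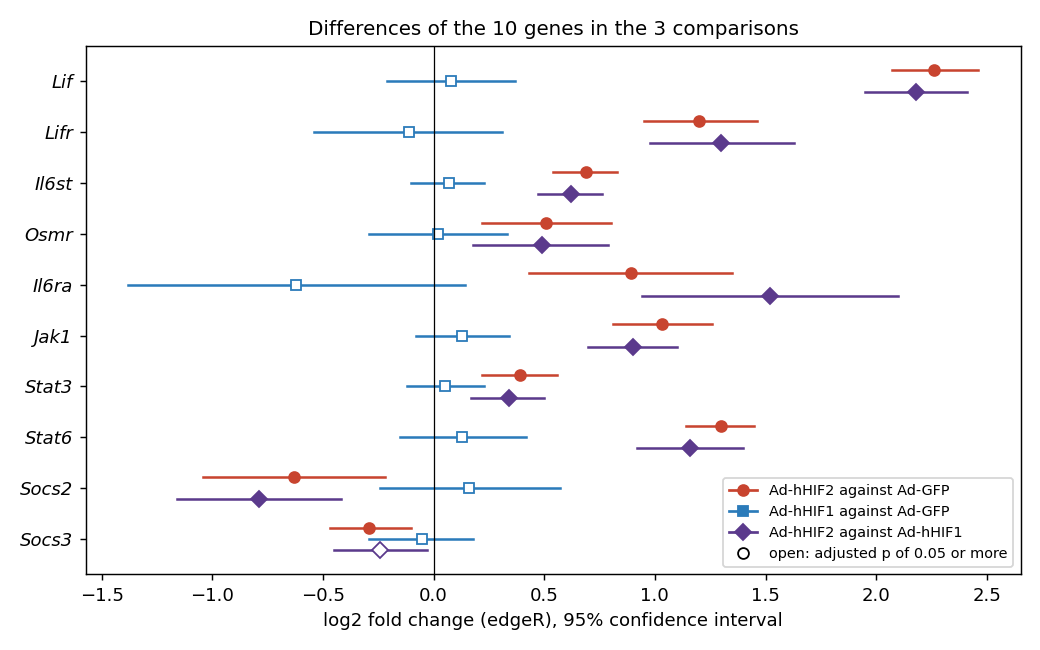
Log2 fold changes (horizontal axis) of the 10 genes (vertical axis) in the 3 comparisons, with lines for the 95% confidence intervals from edgeR, 3 samples per group. Filled symbols had an adjusted p below 0.05: 10 in Ad-hHIF2 against Ad-GFP, 0 in Ad-hHIF1 against Ad-GFP and 9 in Ad-hHIF2 against Ad-hHIF1.

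The direct comparison of Ad-hHIF2 with Ad-hHIF1 organoids tested whether the HIFs differed, in a fit of all 9 samples with 15556 genes. In it 8 of the 10 genes were called higher in Ad-hHIF2, against 13.7% of all genes, and 1, Socs2, was called lower, against 12.0%. At least 2-fold higher were 4, namely Lif, Lifr, Il6ra and Stat6, against 2.42% of all genes. Called genes were higher in 53.3% of cases, and in 72.3% with total counts, which moved the median of all genes from -0.01 to 0.17. Lif had a log2 fold change of 2.18 (SE 0.103, 95% confidence interval 1.95 to 2.41, adjusted p = 3.81e-07, edgeR). It was 1.30 for Lifr, 0.62 for Il6st, 0.49 for Osmr and 1.52 for Il6ra, whose interval of 0.94 to 2.10 was the widest. Jak1 stood at 0.90, Stat3 at 0.34 and Stat6 at 1.16 (adjusted p = 6.77e-05, 0.00755 and 4e-05, edgeR). The median over the 10 genes was 0.76. Both comparisons of Ad-hHIF2 share the same Ad-hHIF2 samples.

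Socs2 was 7.74, 8.28 and 7.90 CPM in Ad-hHIF1 organoids, so that all 3 lay above the Ad-hHIF2 samples (log2 fold change -0.79, SE 0.166, adjusted p = 0.00638, edgeR). This difference was not called with total counts (-0.61, adjusted p = 0.0553, edgeR) or on the TPM scales (-0.24 and -0.60, adjusted p = 0.338 and 0.288, limma). Socs3 was 17.1, 14.8 and 18.4 CPM, and replicate 3 lay within the range of the Ad-hHIF2 samples. Its log2 fold change of -0.24 was not called (adjusted p = 0.0914, edgeR), but was called at -0.27 with at least 10 counts required in every sample (adjusted p = 0.0471) and at -0.33 without Ad-hHIF1 replicate 3 (adjusted p = 0.0226), the library with the high share of Gm10800 and Gm26870 counts, and turned to 0.07 and 0.10 on both TPM scales. Without that library the other 9 genes remained called. On log2(TPM + 1) and log2(TPM + 0.1), Il6st (0.48 and 0.82), Osmr (0.22 and 0.44) and Stat3 (0.18 and 0.22) were not called against Ad-hHIF1 (limma). Nor was Jak1 on log2(TPM + 1) (0.89, adjusted p = 0.0541, limma). Osmr, at 10.9, 14.2 and 11.9 CPM in Ad-hHIF1 organoids, lay lower than in Ad-hHIF2 organoids by 0.49 on the log2 scale (adjusted p = 0.0261). The difference was not called without Ad-hHIF2 replicate 1 (0.36, adjusted p = 0.1), Ad-hHIF2 replicate 3 (0.52, adjusted p = 0.052), Ad-hHIF1 replicate 1 (0.39, adjusted p = 0.111) or Ad-hHIF1 replicate 4 (0.47, adjusted p = 0.0651).

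Levels were compared between genes on a length scale, as CPM per kilobase of each gene's median effective length. In Ad-GFP organoids the order ran from Stat3 (17.3 ± 0.934 CPM per kilobase, SD, n = 3) and Jak1 (14.6 ± 1.58) through Stat6 (7.72), Socs3 (7.41), Il6st (5.64), Lif (4.44), Socs2 (4.06) and Osmr (3.24) to Lifr (1.14) and Il6ra (0.488). The samples of neighbours overlapped for Stat6 and Socs3, for Lif and Socs2 and for Socs2 and Osmr. Ad-hHIF1 organoids kept this order of means. In Ad-hHIF2 organoids the order of means was Jak1 (29.8), Stat3 (22.6), Lif (21.2), Stat6 (18.9), Il6st (9.04), Socs3 (6.05), Osmr (4.58), Socs2 (2.65), Lifr (2.59) and Il6ra (0.913). Lif thus moved from the sixth place to the third, where its samples overlapped with those of Stat3 and of Stat6. This scale used 1 length per gene in all groups, 2421 bases for Lif, whereas its effective length in Ad-hHIF2 samples ran from 2421 to 3024 bases. The order of Lif and Stat6 therefore depends on the length used. The LIF transcript was more abundant per kilobase than that of its receptor chain Lifr in all 3 groups.

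**Figure D3:**
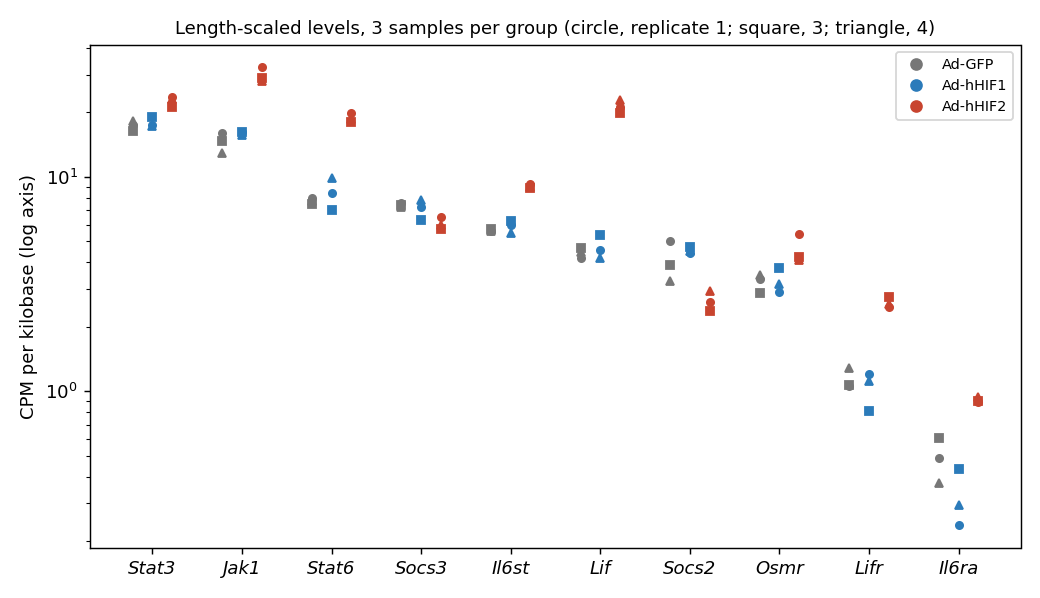
Length-scaled levels in CPM per kilobase (vertical log axis) of the 10 genes (horizontal axis, in the order of the Ad-GFP means), with 1 symbol per sample and 3 samples per group. Lif in Ad-hHIF2 organoids, at a mean of 21.2, lies in the range of Stat3 and Stat6, whereas in Ad-GFP organoids it was at 4.44.

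The effective length that RSEM assigned to a gene, a weighted mean over its transcripts, also differed for 3 of the 10 genes between Ad-hHIF2 and Ad-GFP organoids. Lif was longer in every Ad-hHIF2 sample, at 2976, 3024 and 2421 bases against 2352, 1925 and 1660 in Ad-GFP organoids, but the Ad-hHIF1 samples spanned 1988 to 3364 bases. Socs2 was also longer, at 1858 to 2056 against 1282 to 1736 bases. Lifr was shorter, at 5331 to 5815 against 6302 to 7731 bases. Among 10039 genes with several transcripts, the groups did not overlap in 12.9%. GENCODE M21 lists coding transcripts of 3798 and 4026 bases and a processed transcript of 390 bases for Lif, and coding transcripts of 4143, 2844 and 9655 bases for Lifr. A longer effective length lowers the TPM at a given count. The lengths of the other 7 genes overlapped between these groups.

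Promoter sequence was read because the factor given is a DNA-binding protein and 8 of the 10 genes rose together. The window was the 250 bases before the RefSeq start on GRCm38.p6, read 5′ to 3′ on the gene's strand, and 9 of the 10 genes had at least 1 (10 windows in all, 2 of them of Lifr), all but Socs2. The letters searched were ACGTG and GCGTG, the core of the hypoxia response element that HIFs bind, on both strands. They occurred in 5 of the 10 windows, 1 each of Lif, Lifr, Il6ra, Jak1 and Stat6, against 38.6% of all 32817 windows (16.6% with ACGTG and 28.1% with GCGTG). By gene this was 5 of the 9. The other window of Lifr (chr15:7140292-7140541, plus strand) and the windows of Il6st, Osmr, Stat3 and Socs3 held none of these letters. The windows of Lif (chr11:4257318-4257567, plus strand) and Stat6 (chr10:127642736-127642985, plus strand), the genes with the largest increases, are shown with the match in capitals. The capitals begin at position -204 in Lif, where the match is on the opposite strand, and at -114 in Stat6, counted from the start.
Lif: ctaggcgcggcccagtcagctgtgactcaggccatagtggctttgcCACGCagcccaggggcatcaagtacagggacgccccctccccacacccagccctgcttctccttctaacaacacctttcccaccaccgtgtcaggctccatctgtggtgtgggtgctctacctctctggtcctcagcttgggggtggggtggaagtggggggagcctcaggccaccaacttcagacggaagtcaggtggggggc
Stat6: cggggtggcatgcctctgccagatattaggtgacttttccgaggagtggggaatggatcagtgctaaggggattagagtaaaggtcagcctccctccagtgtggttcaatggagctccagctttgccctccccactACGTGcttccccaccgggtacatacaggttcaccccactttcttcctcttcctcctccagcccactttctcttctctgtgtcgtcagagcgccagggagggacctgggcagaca
The matches of the other 3 genes are shown with 10 bases on each side, to set their neighbouring bases beside each other. They are at chr15:7129404-7129428 (plus strand) for Lifr, chr4:101265280-101265304 (minus strand) for Jak1 and chr3:89913205-89913230 (minus strand) for Il6ra. In Il6ra the letters are a palindrome that matches ACGTG on each strand at the same place.
Lifr: ggctccgactCACGCgcggcctcgc
Jak1: cgtacaagggGCGTGatcgttcaga
Il6ra: tgctgtgtgtCACGTGcatgtgggaa
The letters TTCNNNGAA and TTCNNNNGAA, which STAT dimers bind, occurred in 1 of the 10 windows, that of Socs3, against 12.4% of all windows (7.01% with TTCNNNGAA and 5.85% with TTCNNNNGAA). That match is at chr11:117969502-117969530 (minus strand) with its flanks, and its capitals begin at -154. The Socs3 window (chr11:117969367-117969616) lies within the gene as placed by GENCODE M21 (chr11:117966079-117970047). Both windows of Lifr (chr15:7129322-7129571 and chr15:7140292-7140541) and that of Osmr (chr15:6874314-6874563) also lie within their genes. The windows of Jak1 and Lif lie partly within theirs.
Socs3: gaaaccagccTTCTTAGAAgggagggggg
A match of letters is a description of these windows, and binding was not measured here.

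Beyond the 10 genes, 51 genes of the same pathway were followed in 8 lists, of which 38 were tested in Ad-hHIF2 against Ad-GFP organoids. Of these, 10 were called higher by edgeR, against 15.9% of all genes, 4 were called lower, against 13.6%, and 24 were not called, with a median log2 fold change of 0.10. No other ligand of the gp130 family was called: of 10 listed, 4 had enough counts and 0 were called by edgeR, with 1, Clcf1, at an unadjusted p below 0.05. Clcf1 averaged 9.79 CPM in Ad-GFP organoids, near the 10.7 CPM of Lif, and 7.44 CPM in Ad-hHIF2 organoids. Its log2 fold change was -0.40 (unadjusted p = 0.0286, adjusted p = 0.0811, edgeR). Every Ad-hHIF2 sample was lower, which held for 22.4% of all genes. In Ad-hHIF1 organoids 38 were tested, 0 were called by edgeR and 0 had an unadjusted p below 0.05. Between Ad-hHIF2 and Ad-hHIF1 organoids, 9 of 39 were called higher, against 13.7% of all genes, and 4 lower, against 12.0%. Without Ad-hHIF1 replicate 3, 13 of the pathway genes were called, and Cish was no longer among them (log2 fold change 0.59, adjusted p = 0.0964, edgeR). Cish against Ad-hHIF1 was also lost without Ad-GFP replicate 3, Ad-hHIF2 replicate 1 or 3, or Ad-hHIF1 replicate 1 or 4 (0.68 to 0.91, adjusted p = 0.056 to 0.146, edgeR), and on the TPM scales (0.39 and 1.10, adjusted p = 0.105 and 0.0865, limma).

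Of the 4 receptor genes listed upstream of STAT6, 3 were tested and 2 were called, both higher, against 15.9% of all genes. Il13ra1, a chain of the receptor that interleukin-4 and interleukin-13 share, rose from 7.28 ± 1.13 to 26.9 ± 1.55 CPM (SD, n = 3 each; log2 fold change 1.88, adjusted p = 1.36e-05, edgeR). Il13ra2, which binds interleukin-13 as a decoy, was at 0.683, 0.915 and 0.5 CPM in Ad-GFP and 5.21, 5.26 and 4.69 CPM in Ad-hHIF2 organoids (log2 fold change 2.82, adjusted p = 8.89e-05, edgeR). Il4ra, the other chain of that receptor, was at 51.9 ± 0.938 and 51.4 ± 4.01 CPM (SD, n = 3 each), and the 95% confidence interval of its log2 fold change of -0.01 ran from -0.19 to 0.17. Il13ra1 and Il13ra2 were called higher than in Ad-hHIF1 organoids too, at 1.81 for Il13ra1 and 2.81 for Il13ra2 (adjusted p = 2.56e-06 and 0.00107, edgeR).

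Of 10 tested genes induced through STAT3, 3 were called higher, against 15.9% of all genes, 3 lower, against 13.6%, and 4 were not called. Fosl2, an AP-1 subunit, rose to 161.3 ± 6.87 from 76.3 ± 5.09 CPM (SD, n = 3 each; log2 fold change 1.08, adjusted p = 3.64e-05, edgeR). Junb, another AP-1 subunit, rose by 0.66 (adjusted p = 0.000629) and Bcl3, a nuclear IκB family member, by 0.68 (adjusted p = 0.00588). The kinase gene Pim1 fell to 42.5 ± 3.08 from 98.3 ± 4.5 CPM (SD, n = 3 each; log2 fold change -1.21, adjusted p = 1.62e-05, edgeR). Myc, a growth-promoting transcription factor, fell to 65.3 ± 7.46 from 146.2 ± 2.76 CPM (log2 fold change -1.16, adjusted p = 5.32e-05, edgeR), and the adhesion molecule gene Icam1 fell by 0.64 on the log2 scale (adjusted p = 0.0112, edgeR). The same 6 genes were called in the same directions against Ad-hHIF1 organoids, where 13.7% of all genes were called higher and 12.0% lower. With total counts the decreases of Pim1 and Myc against Ad-GFP were still called, and that of Icam1 was not (-0.38, adjusted p = 0.224, edgeR). On log2(TPM + 1), where the test was limma, the log2 fold changes against Ad-GFP were -0.58 for Pim1, -0.55 for Myc and -0.03 for Icam1 and were not called (adjusted p = 0.202, 0.274 and 0.874), while the 3 increases were. Against Ad-hHIF1, Fosl2 alone of the 6 was called on the TPM scales, with Bcl3 at 0.49 (adjusted p = 0.236, limma) and Junb at 0.85 (adjusted p = 0.147, limma) on log2(TPM + 1).

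Among the other inhibitors, Cish, a SOCS family gene best known as a STAT5 target, rose from 2.65 ± 0.683 to 6.14 ± 1.07 CPM (SD, n = 3 each; log2 fold change 1.20, adjusted p = 0.00436, edgeR). It was the 1 called of 6 SOCS genes listed, against 15.9% of all genes called higher and 13.6% lower, and the other 5 were not called. For Socs1 the log2 fold change was 0.94 (adjusted p = 0.0592, edgeR). The phosphatase gene Ptpn2 fell by 0.46 on the log2 scale (adjusted p = 0.00336, edgeR), but was not called with total counts (-0.20, adjusted p = 0.452) and was at 0.01 and 0.00 on the log2(TPM + 1) and log2(TPM + 0.1) scales. Ptpn11, which encodes the phosphatase SHP2, rose by 0.36 (adjusted p = 0.00783, edgeR), but was not called on the TPM scales (0.54 and 0.71, adjusted p = 0.207 and 0.212, limma). Pias4, of the family of STAT inhibitors, was at the threshold (log2 fold change 0.22, adjusted p = 0.0492, edgeR), and it was no longer called without any 1 sample other than Ad-GFP replicate 4, with adjusted p up to 0.141. Nor was it called without a count filter (0.26, adjusted p = 0.0765, edgeR) or with at least 10 counts in every sample (0.21, adjusted p = 0.056, edgeR). With median-ratio size factors (adjusted p = 0.0545, edgeR), DESeq2 (adjusted p = 0.106) or all 9 samples in 1 fit (adjusted p = 0.171, edgeR), the log2 fold change stayed at 0.22 without a call. On the TPM scales it was 0.47 and 0.61, also without a call (adjusted p = 0.28 for both, limma). Among the other receptors, Il11ra1, the interleukin-11 receptor chain, rose by 0.45 (adjusted p = 0.0289, edgeR). It was no longer called without Ad-GFP replicate 3 (0.46, adjusted p = 0.07), Ad-GFP replicate 4 (0.38, adjusted p = 0.0513), Ad-hHIF2 replicate 3 (0.35, adjusted p = 0.103) or Ad-hHIF2 replicate 4 (0.45, adjusted p = 0.0753), or on the TPM scales (0.37 and 0.56, adjusted p = 0.357 and 0.331, limma). Against Ad-hHIF1 organoids, Il11ra1 was not called (log2 fold change 0.27, adjusted p = 0.121, edgeR).

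**Figure D4:**
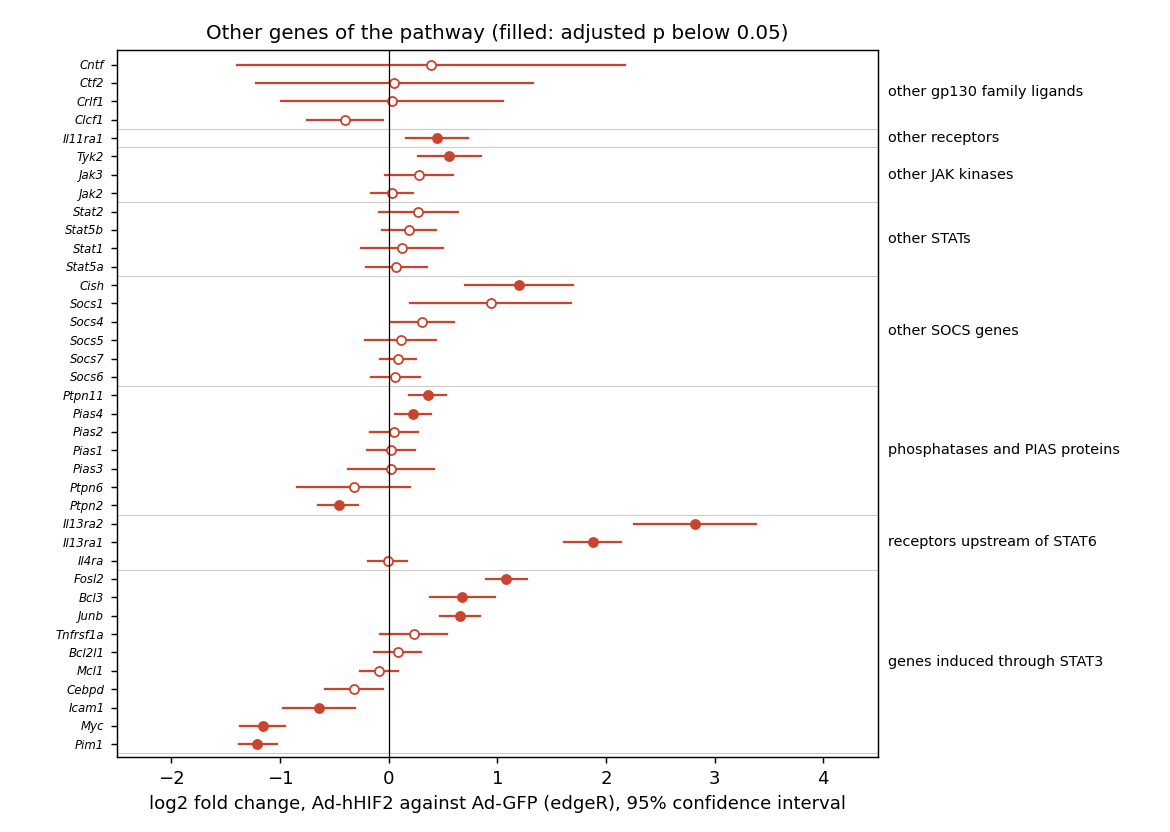
Log2 fold changes in Ad-hHIF2 against Ad-GFP organoids (horizontal axis) of the 38 tested genes of the 8 pathway lists (vertical axis, grouped by list), with 95% confidence intervals from edgeR and 3 samples per group. Filled symbols, 14 in all, had an adjusted p below 0.05, and the largest increases were those of Il13ra2 (2.82) and Il13ra1 (1.88).

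Markers of other cell types were set beside these results, and their sums were low next to the epithelial sum, most of which was Krt8 and Krt18. Single genes were not all lower than single epithelial markers. In Ad-GFP organoids Cd68 averaged 10.55 CPM and Pdgfra 3.95 CPM, against 2.94 CPM for Epcam and 4.36 CPM for Vil1. The summed level of 5 fibroblast genes was 11.6 to 17.7 CPM in Ad-GFP, 9.53 to 12.6 in Ad-hHIF2 and 9.77 to 19.1 in Ad-hHIF1 organoids. In Ad-hHIF2 against Ad-GFP 0 of 5 were called, against 15.9% of all genes higher and 13.6% lower. All 5 were lower in that fit (median log2 fold change -0.27), 2 of them with an unadjusted p below 0.05 (edgeR). Against Ad-hHIF1 0 of 5 were called, against 13.7% higher and 12.0% lower. In Ad-hHIF1 against Ad-GFP 0 of 5 were called, against 0% of all genes. The 2 endothelial genes summed to less than 1 CPM in every sample. The 4 leukocyte genes summed to 11.1 to 15.5 CPM in Ad-GFP, 14.3 to 19.2 in Ad-hHIF2 and 8.61 to 10.6 in Ad-hHIF1 organoids, and most of this was Cd68. Their members went in opposite directions in Ad-hHIF2 against Ad-GFP organoids, since Csf1r rose by 1.46 and Ptprc, the pan-leukocyte marker, fell by 3.92 on the log2 scale, from a mean of 0.769 to 0.0425 CPM (adjusted p = 0.0475 and 0.00472, edgeR). Against Ad-hHIF1 organoids, all 3 tested leukocyte genes were called, against 13.7% of all genes higher and 12.0% lower, with Csf1r higher by 3.11, Cd68 higher by 0.60 and Ptprc lower at -2.64 on the log2 scale (adjusted p = 0.00201, 0.0374 and 0.0472, edgeR). Cd3e was below 0.307 CPM in every sample. The 7 epithelial genes summed to 2398 to 2567 CPM in Ad-GFP, 2547 to 2853 in Ad-hHIF2 and 2279 to 2573 in Ad-hHIF1 organoids. Of these 7, Cdh1 was called higher (log2 fold change 0.53) and Epcam lower (-0.81, adjusted p = 0.00313 and 0.0472, edgeR) in Ad-hHIF2 against Ad-GFP organoids. Over all genes 15.9% were called higher and 13.6% lower in that comparison. The part of these markers in the results was not tested.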

How the data were processed

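RNA sequencing covered 9 duodenal organoid samples, 3 per group, which the study calls biological replicates. Groups came from the sample labels and the replicate numbers 1, 3 and 4 from the sample titles. Reads of low quality were removed by the authors, and RSEM was used to quantify transcripts. The RSEM version, aligner, genome build, annotation and strandedness are not given in the sources used here. The deposited expected counts are the authors' RSEM estimates per gene, not normalized, of which 85.7% were whole numbers. The deposited TPM are length-scaled values that the authors' RSEM run computed, used only in alternatives. The deposited effective lengths are in bases.

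The expected counts were rounded, filtered with filterByExpr, normalized by TMM and tested with edgeR 4.0.16 (quasi-likelihood, R 4.3.3), with Benjamini-Hochberg adjustment over all genes tested. The comparisons with Ad-GFP were fits of the 6 samples concerned, and Ad-hHIF2 against Ad-hHIF1 was a contrast in a fit of all 9. Standard errors were derived from the F statistic. Per-sample values are CPM with TMM factors over the 9 samples, and CPM per kilobase divide them by the gene's median effective length. Lifr had fractional counts in 7 samples and Stat3 and Socs2 in 2 each, so some of their reads were shared with other features. In GENCODE M21, exons overlap those of a gene on the opposite strand by 242 bases in Il6ra (Gm42809), 72 in Stat3 (Stat5a), 40 in Stat6 (Nab2) and 4 in Jak1 (Raver2), where reads cannot be told apart without strand. With 3 samples per group, an exact two-sided permutation test cannot go below p = 0.1. No 2 samples of a group agreed within sampling noise.

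Results were recomputed with total counts only, with median-ratio size factors, with DESeq2 1.42.0, without a count filter, with a minimum of 10 counts per sample, with limma 3.58.1 on log2(TPM + 1) and log2(TPM + 0.1), with another sample set in the fit, a replicate block, each sample left out and a 2-fold threshold. The tests were tried on simulated counts in which 200 genes were changed. EdgeR recovered 73% of the 2-fold changes in Ad-hHIF2 against Ad-GFP, 70% in Ad-hHIF1 against Ad-GFP and 73% in Ad-hHIF2 against Ad-hHIF1. In that order, 97%, 91% and 92% of the 4-fold changes were recovered, and 4%, 4.7% and 6.8% of the calls were false. Named genes were the 10 members, genes of the pathway lists called in any comparison and the 5 genes most like Lif by Pearson r of log2(CPM + 0.5). Jak2, Jak3, Socs1, Il4ra, Clcf1 and the markers are named outside this rule, after their values were seen. One leukocyte marker gene is not reported here and was left out of the leukocyte sum. The members and lists were chosen with earlier results of these data known. Positions are from GENCODE M21 (GRCm38), which matched 46005 of 46517 identifiers, and promoter windows from RefSeq (GRCm38.p6). Python 3.11.15, pandas 2.3.3 and matplotlib 3.10.9 were used.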

Additional observations from a re-analysis of the deposited data

How the results depend on the processing

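Of the 10 genes, 10 were called in Ad-hHIF2 against Ad-GFP, 0 in Ad-hHIF1 against Ad-GFP and 9 in Ad-hHIF2 against Ad-hHIF1. Limma on log2(TPM + 1) called 5, 0 and 4, limma on log2(TPM + 0.1) called 5, 0 and 5, and the 2-fold threshold left 4, 0 and 4. Against Ad-GFP, 9 genes were called with DESeq2, 9 without a count filter and 8 with total counts. Against Ad-GFP, the genes lost on both TPM scales were Il6st, Osmr, Stat3, Socs2 and Socs3. The increases of Lif, Lifr, Il6ra and Stat6 were called in both comparisons of Ad-hHIF2 under every alternative run on their fold changes. On log2(TPM + 1) against Ad-GFP, their log2 fold changes were 1.29, 0.40, 0.15 and 1.10, with the median of all genes at 0.12. With log2(TPM + 0.1) they were 2.05, 1.38, 0.82 and 1.63, with that median at 0.30. Leaving out each sample gave 7 to 10, 0 to 0 and 8 to 10 genes, and the cause of the losses was not tested.

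The sign of Socs3 turned on the TPM scales, to 0.12 and 0.18 (pseudocount 1 and 0.1) against Ad-GFP and to 0.07 and 0.10 against Ad-hHIF1, and Ptpn2 turned to 0.01 with pseudocount 1. In Ad-hHIF1 against Ad-GFP, Socs3 turned to 0.03 with total counts and to 0.05 and 0.08 on the TPM scales, Lif to -0.06 and -0.12 and Lifr to 0.02 and 0.10. With single samples left out, log2 fold changes there ran from -0.02 to 0.16 for Lif, -0.22 to 0.04 for Lifr, -0.09 to 0.10 for Osmr, 0.00 to 0.25 for Stat6 and -0.13 to 0.03 for Socs3.

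Over all genes, 4416, 0 and 4008 were called. The 2-fold threshold left 1009, 0 and 951, log2(TPM + 1) called 1010, 0 and 367, and log2(TPM + 0.1) called 1109, 0 and 460. Without a count filter 384 genes were called in Ad-hHIF1 against Ad-GFP, with DESeq2 144 and with all 9 samples in 1 fit 7. Leaving out Ad-hHIF2 replicate 1 lowered Ad-hHIF2 against Ad-hHIF1 to 2594 genes.

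The replicate block called 10, 0 and 8 of the 10 genes, since Osmr against Ad-hHIF1 had an adjusted p of 0.053, and the numbers were not shown to pair the samples: same-numbered samples' deviations correlated at -0.169 to 0.105 over 9 pairs, 1 of them above 0.1. The replicate block also gave Pias4 against Ad-GFP an adjusted p of 0.0606. Among the 10 genes, Il6ra had the lowest count in a single sample, at 40 in Ad-GFP replicate 4.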
